A study of Homo sapiens with 6 samples.

Results

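Genes of iron uptake, storage, export and sensing were followed in MHCC97H cells after knockdown of HNRNPC. The 10 members were FTL, FTH1, TFRC, SLC11A2, SLC40A1, IREB2, ACO1, FBXL5, NCOA4 and HMOX1, 10 of the 15598 genes in the deposited table. FTL, TFRC and IREB2 were chosen by their lower counts in the same comparison of shHNRNPC with shcontrol, so their values are given as a description with no test. The other 7 were listed for their role. RNA sequencing had been done on 3 libraries of cells with a short hairpin RNA against HNRNPC (shHNRNPC; SI_3, SI_3_2 and SI_3_3) and 3 libraries of cells with a control hairpin (shcontrol; NC_3, NC_3_2 and NC_3_3). MHCC97H is a hepatocellular carcinoma line of high metastatic capacity, and hnRNP C, the product of HNRNPC, packages nascent RNA in the nucleus at stretches of uridines and influences splicing. The labels tell apart 1 hairpin against HNRNPC, and they give neither the time after its delivery nor the culture medium or its iron supply.

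Iron enters most cells as transferrin bound to the transferrin receptor (TFRC) and leaves the endosome through DMT1 (SLC11A2). It is stored in a shell of ferritin light and heavy chains (FTL, FTH1), is released when NCOA4 carries ferritin to the lysosome, and is exported by ferroportin (SLC40A1). Cells sense iron through the iron regulatory proteins IRP1 (ACO1) and IRP2 (IREB2), which bind hairpins called iron-responsive elements. Binding near the start of a ferritin transcript blocks its translation, whereas binding in the 3′ untranslated region of TFRC protects that transcript from decay. The liver is a main site of iron storage in the body.

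Elements of the kind that the iron regulatory proteins bind are shown for the members that hold one of the searched form. A search of the coding transcripts in GENCODE 29 took a C, 5 bases, the loop CAGTGN or CAGAGN with a last base other than G, and 5 bases that pair with the first 5 (G with T allowed). It found the element in 4 of the 10 members, and in 2.67% of the 11813 tested genes with a coding transcript. The members were chosen as iron genes, so these shares are no test. SLC40A1 is among the 4 and was not a tested gene. The elements are printed 5′ to 3′ on the transcript strand with 29 bases each and the loop in capitals, T standing for U. FTL and FTH1 each hold 1 element in the 5′ untranslated region, as does SLC40A1, and TFRC holds 5 in the 3′ untranslated region.
FTL, chr19:48965335-48965363 (plus strand): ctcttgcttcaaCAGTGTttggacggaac
FTH1, chr11:61967574-61967602 (minus strand): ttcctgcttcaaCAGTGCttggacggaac
SLC40A1, chr2:189580661-189580689 (minus strand): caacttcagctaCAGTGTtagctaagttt
TFRC, chr3:196051029-196051057 (minus strand): atttatcagtgaCAGAGTtcactataaat
TFRC, chr3:196050979-196051007 (minus strand): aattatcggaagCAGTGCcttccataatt
TFRC, chr3:196050575-196050603 (minus strand): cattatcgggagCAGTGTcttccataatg
TFRC, chr3:196050510-196050538 (minus strand): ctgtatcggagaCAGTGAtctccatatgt
TFRC, chr3:196050463-196050491 (minus strand): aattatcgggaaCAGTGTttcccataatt
Positions are on GRCh38. The same search found no element in SLC11A2, ACO1, IREB2, FBXL5, NCOA4 or HMOX1, which says only that no stretch of their coding transcripts has these letters and pairs.

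Libraries held 15563077 to 18328475 counts, and 11831 genes passed the filter on low counts, 9 of the 10 members among them. Levels are given as counts per 1000000 counts (CPM) after TMM scaling, with means ± SD over 3 libraries per group. HNRNPC had 61.5, 66.4 and 59.0 CPM in shHNRNPC, against 847, 855 and 856 CPM in shcontrol (log2 fold change -3.77, SE 0.0297, edgeR adjusted p = 5.04e-55). Of 11 markers listed for hepatocytes, 6 had a row and 0 of them reached 1 CPM. The liver identity of the line was therefore not seen in these markers. Of 4 simple epithelial markers, KRT8 stood at 1159 CPM in shHNRNPC and 1006 CPM in shcontrol, KRT18 at 405 CPM in shHNRNPC and 364 CPM in shcontrol, and CDH1 at 16.2 CPM in shHNRNPC and 14.6 CPM in shcontrol. EPCAM was under 1 CPM in both groups. Across the table, 61.1% of tested genes were called at an adjusted p under 0.05, 29.8% higher and 31.3% lower in shHNRNPC. NC_3 stood apart from the other libraries by transcripts of red blood cells: HBB, a hemoglobin chain, had 2652 counts (156 CPM) there and 0 to 6 counts in each of the other 5 libraries. ALAS2, the erythroid enzyme of heme synthesis, had 55 counts in NC_3 and 0 to 2 elsewhere. Of 4 erythroid markers listed, 3 had a row, and their summed level was 0 to 0.399 CPM in shHNRNPC and 0.161 to 162 CPM in shcontrol. The members are therefore also given without NC_3. In these bulk libraries, fewer cells of a type and less RNA per cell cannot be told apart.

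In the ferritin pair, the light chain FTL was lower in the knockdown and the heavy chain FTH1 showed no change that passed the test. FTL had 1689, 1710 and 1678 CPM in shHNRNPC, against 2834, 2890 and 2839 CPM in shcontrol. The groups did not overlap, and the 3 libraries of each group stood close together. The mean was 1693 ± 16.3 CPM in shHNRNPC and 2854 ± 31.1 CPM in shcontrol, 59.3% of the shcontrol level (log2 fold change -0.75, SE 0.0170). Without NC_3 the log2 fold change was -0.76. This is the value for which FTL was picked. FTL lies on chromosome 19, 48965301 to 48966878, plus strand in the deposited table.

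FTH1 had 945, 865 and 1168 CPM in shHNRNPC, against 1220, 914 and 885 CPM in shcontrol. SI_3_3 and NC_3 were high and the other 4 libraries lower, so the groups overlapped. FTH1 averaged 992 ± 157 CPM in shHNRNPC and 1006 ± 185 CPM in shcontrol (log2 fold change -0.02, SE 0.0621, edgeR adjusted p = 0.798). Its spread within groups was larger than that of 99.96% of the 2396 genes with at least 100 CPM. The result turned on single libraries. Without NC_3 the log2 fold change was 0.14 (edgeR adjusted p = 1.99e-05), and without SI_3_3 it was -0.15 (edgeR adjusted p = 0.0188). With all 6 libraries and counts corrected for GC content and transcript length it was -0.15 (edgeR adjusted p = 0.0124). HBB was at 0.113 CPM in SI_3_3 and 156 CPM in NC_3, so the high FTH1 count went with red cell transcripts in 1 of these 2 libraries; their part in the FTH1 value was not tested.

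GENCODE 29 lists 25 FTH1 and 16 FTL pseudogenes, 0 of them with a row in the table. How reads that match such a copy as well as the gene were counted is not given in the sources, so FTH1 and FTL counts are uncertain to that extent. Another deposited measure, scaled for length and not used here, was not proportional to the counts of FTH1 across libraries. The FTH1 level, its spread and every ratio or sum with FTH1 below hold for the deposited counts only. FTH1 lies on chromosome 11, 61959718 to 61967631, minus strand. Its spread between libraries of a group was 0.239 on the log2 CPM scale, against 0.0148 for FTL, so the 2 chains did not share this unevenness.

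**Figure D1:**
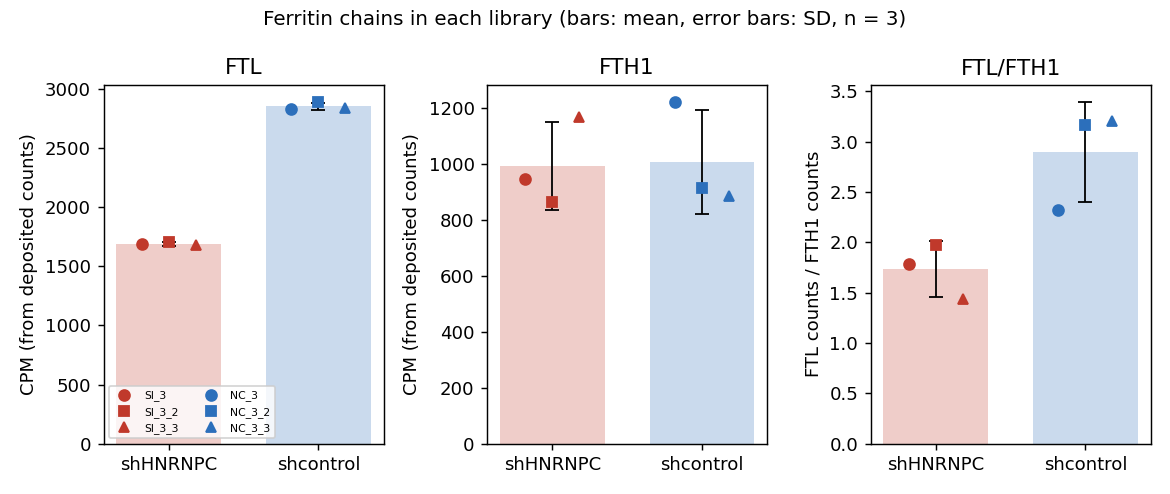
FTL and FTH1 in CPM and the ratio of FTL counts to FTH1 counts in each library, with shHNRNPC left of shcontrol; bars are means and error bars SD (n = 3). FTL lies at 1678 to 1710 CPM in shHNRNPC and 2834 to 2890 CPM in shcontrol, whereas FTH1 overlaps between the groups and is high in SI_3_3 and NC_3.

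The balance of the 2 chains is a description, since FTL was picked for its value. FTL counts over FTH1 counts were 1.79, 1.98 and 1.44 in shHNRNPC, against 2.32, 3.16 and 3.21 in shcontrol. Every shHNRNPC library had a lower light-to-heavy ratio than every shcontrol library, at a mean of 1.73 ± 0.275 in shHNRNPC and 2.90 ± 0.498 in shcontrol. NC_3, with its high FTH1 count, had the lowest ratio of the shcontrol libraries, and SI_3_3 the lowest of the shHNRNPC libraries. Per kilobase of transcript, the 2 chains summed to 2735 ± 111 CPM in shHNRNPC and 4070.0 ± 136 CPM in shcontrol.

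Of the uptake genes, the transferrin receptor was lower and the endosomal transporter rose. TFRC had 539, 541 and 528 CPM in shHNRNPC, against 941, 964 and 972 CPM in shcontrol. All shHNRNPC libraries lay below all shcontrol libraries. The mean was 536 ± 6.98 CPM in shHNRNPC and 959 ± 15.8 CPM in shcontrol, 55.9% of the shcontrol level (log2 fold change -0.84, SE 0.0209), and the log2 fold change was -0.86 without NC_3. This is the value for which TFRC was picked. Once counts were corrected for GC content and transcript length it was -0.53, a smaller difference by more than 1.5 times on the log2 scale. TFRC is placed on chromosome 3, 196049284 to 196082189, minus strand.

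SLC11A2, which encodes DMT1, the carrier that moves iron(II) out of the endosome, rose 1.49-fold. It had 65.5, 63.8 and 60.4 CPM in shHNRNPC, against 43.2, 40.2 and 43.4 CPM in shcontrol. No shcontrol library reached the shHNRNPC libraries (log2 fold change 0.58, SE 0.0511, edgeR adjusted p = 1.34e-13; 0.59 without NC_3). SLC11A2 is on chromosome 12, 50985992 to 51028566, minus strand. DMT1 transcripts with and without an iron-responsive element are known as isoforms that differ at their 3′ end, and counts per gene do not tell them apart.

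Export could not be compared. SLC40A1, the known iron exporter, had 2 counts in SI_3, 1 count in NC_3 and 0 in the other 4 libraries, and did not pass the filter on low counts. It is placed on chromosome 2, 189560579 to 189580887, minus strand. It was not detectable as different at this depth.

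Both iron regulatory proteins had lower transcript levels in the knockdown. IREB2, which encodes IRP2, had 30.2, 30.3 and 29.6 CPM in shHNRNPC, against 54.7, 51.6 and 54.0 CPM in shcontrol. The mean was 30.0 ± 0.347 CPM in shHNRNPC and 53.4 ± 1.63 CPM in shcontrol, 56.2% of the shcontrol level. Its log2 fold change of -0.83 (SE 0.0556; -0.82 without NC_3) is the value for which it was picked. After the correction for GC content and length it was -0.40, so the size depends on this setting. IREB2 lies on chromosome 15, 78438189 to 78501456, plus strand.

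ACO1, which encodes IRP1, a protein that is a cytosolic aconitase when it holds an iron-sulfur cluster, fell 1.54-fold. It had 56.4, 55.2 and 55.8 CPM in shHNRNPC, against 85.1, 90.2 and 83.3 CPM in shcontrol. The groups did not overlap (log2 fold change -0.63, SE 0.0443, edgeR adjusted p = 1.10e-16; -0.64 without NC_3). ACO1 is on chromosome 9, 32384603 to 32450832, plus strand.

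FBXL5 encodes the iron-binding subunit of the ubiquitin ligase that marks IRP2 for degradation when iron is ample. It had 26.8, 23.4 and 22.1 CPM in shHNRNPC, against 24.9, 26.0 and 28.1 CPM in shcontrol. SI_3 lay among the shcontrol libraries, and the difference did not pass the test (log2 fold change -0.13, SE 0.0744, 95% interval -0.28 to 0.01, edgeR adjusted p = 0.123). Without NC_3 it was -0.17 (edgeR adjusted p = 0.0504). Without SI_3 it was called lower (log2 fold change -0.21, edgeR adjusted p = 0.0219). It was also called lower with libraries scaled by size alone, at -0.17 (edgeR adjusted p = 0.0420), and its sign turned after the correction for GC content and length (0.07). FBXL5 lies on chromosome 4, 15605006 to 15655382, minus strand.

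NCOA4, the receptor that takes ferritin to the lysosome, had 88.4, 89.5 and 93.9 CPM in shHNRNPC, against 91.3, 94.9 and 88.6 CPM in shcontrol. The values were interleaved (log2 fold change -0.01, SE 0.0401, 95% interval -0.09 to 0.06, edgeR adjusted p = 0.783; -0.02 and 0.729 without NC_3). The correction for GC content and length gave 0.09 (edgeR adjusted p = 0.0390). HMOX1, heme oxygenase, which frees iron from heme, rose 1.46-fold. It had 99.6, 93.3 and 97.7 CPM in shHNRNPC, against 69.0, 65.2 and 64.9 CPM in shcontrol, with no overlap (log2 fold change 0.54, SE 0.0421, edgeR adjusted p = 2.03e-15; 0.57 without NC_3). NCOA4 is on chromosome 10, 46006295 to 46019537, minus strand, and HMOX1 on chromosome 22, 35380835 to 35394214, plus strand.

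Of the 7 members listed for their role, 6 were tested, 2 of them higher (SLC11A2, HMOX1), 1 lower (ACO1) and 3 not called. With 61.1% of all tested genes called, 3 of 6 is near the background. The groups did not overlap for these 3, nor for 64.0% of all tested genes, 30.9% with shHNRNPC above and 33.0% with it below shcontrol. Without NC_3, 3 were higher and 1 was lower, FTH1 being the added call. Over all 11972 genes tested without NC_3, 3369 were higher and 3615 lower. In size, the 3 picked members stood at percentiles 4.79 (FTL), 3.30 (TFRC) and 3.45 (IREB2) of all tested fold changes. Their low places follow from being picked for their falls. Of the members listed for their role, ACO1 stood at 8.09, HMOX1 at 93.6 and SLC11A2 at 94.3. FBXL5, FTH1 and NCOA4 stood at 36.2, 48.2 and 48.8, near the middle. The authors' deposited table gives log2 fold changes of -0.75 for FTL, -0.84 for TFRC, -0.83 for IREB2, -0.62 for ACO1, 0.58 for SLC11A2 and 0.55 for HMOX1.

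**Figure D2:**
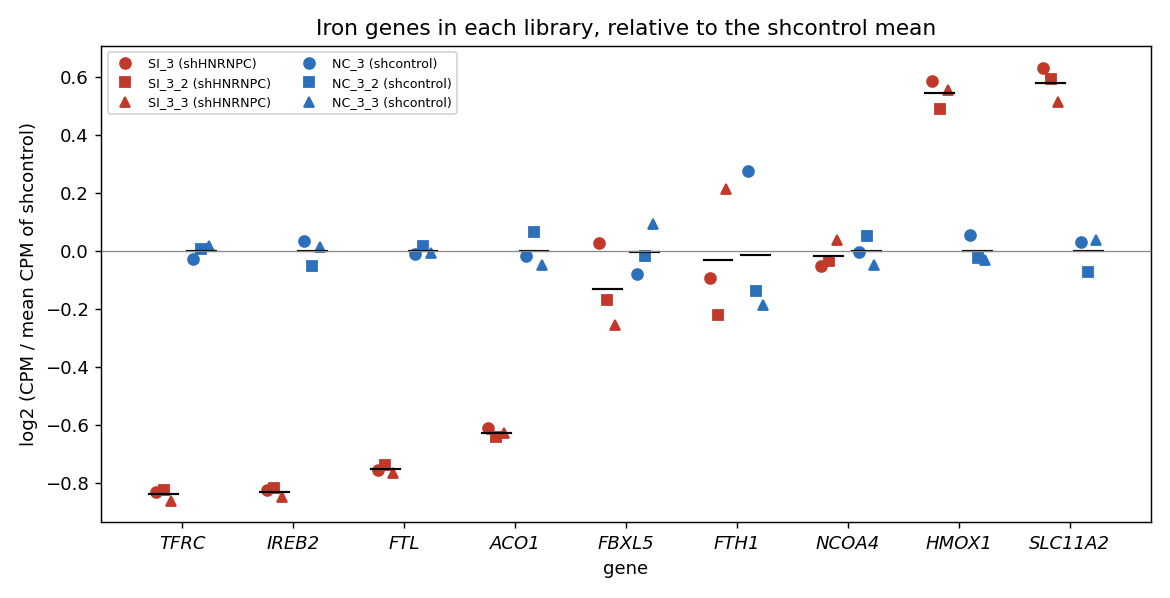
Level of 9 members in each library as log2 of CPM over the shcontrol mean, shHNRNPC left of shcontrol for each gene; black bars are means of 3. TFRC, IREB2, FTL and ACO1 lie below the shcontrol libraries without overlap, and HMOX1 and SLC11A2 above them. FBXL5, FTH1 and NCOA4 overlap, with FTH1 widest (SD 157 CPM in shHNRNPC and 185 CPM in shcontrol). TFRC, IREB2 and FTL were picked for their falls, and the groups did not overlap for 64.0% of all tested genes.

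**Figure D3:**
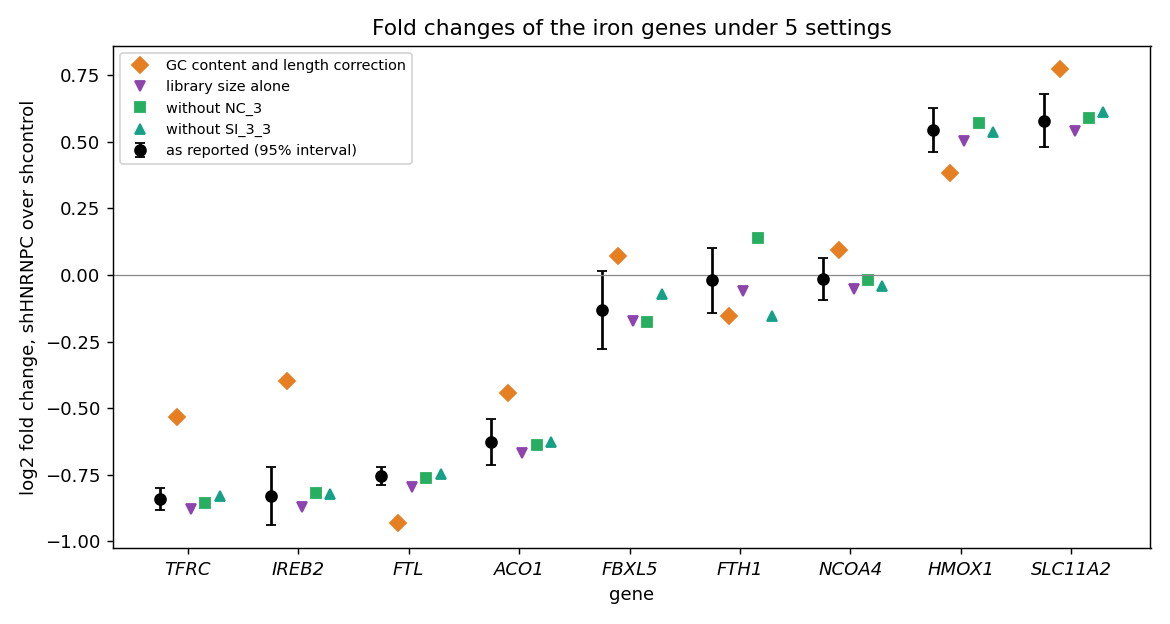
Log2 fold change of shHNRNPC over shcontrol for 9 members as reported, with its 95% interval, and under 4 other settings. FTL, TFRC and IREB2 were picked for their falls, so their intervals are a description of spread and no test. The correction for transcript GC content and length moves IREB2 to -0.40 and TFRC to -0.53, and leaving out NC_3 or SI_3_3 moves FTH1 to 0.14 or -0.15.

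Between genes, levels were compared only as CPM per kilobase of the longest coding transcript. The ferritin chains stood far above every other member. FTL was at 1928 ± 18.5 CPM per kilobase in shHNRNPC and 3251 ± 35.4 in shcontrol, and FTH1 at 807 ± 128 in shHNRNPC and 819 ± 151 in shcontrol. TFRC followed at 105 ± 1.37 CPM per kilobase in shHNRNPC and 188 ± 3.09 in shcontrol, then HMOX1 at 53.2 ± 1.78 in shHNRNPC and 36.4 ± 1.24 in shcontrol. NCOA4 came next, at 25.5 ± 0.830 CPM per kilobase in shHNRNPC and 25.8 ± 0.891 in shcontrol. These 5 kept the same order in both groups, with no overlap between neighbours.

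Below them the order differed between groups. SLC11A2 (14.5 ± 0.606 CPM per kilobase) stood above ACO1 (7.47 ± 0.0789) in shHNRNPC, whereas in shcontrol ACO1 (11.5 ± 0.475) stood above SLC11A2 (9.72 ± 0.413). IREB2 was lowest of the 9 tested members in shHNRNPC, at 4.73 ± 0.0546 CPM per kilobase, and stood at 8.41 ± 0.256 in shcontrol. FBXL5 was at 7.12 ± 0.725 CPM per kilobase in shHNRNPC, where it overlapped ACO1, and at 7.78 ± 0.474 in shcontrol, where it overlapped IREB2. These levels assume that reads came from the longest coding transcript, and which isoforms were present was not tested.

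**Figure D4:**
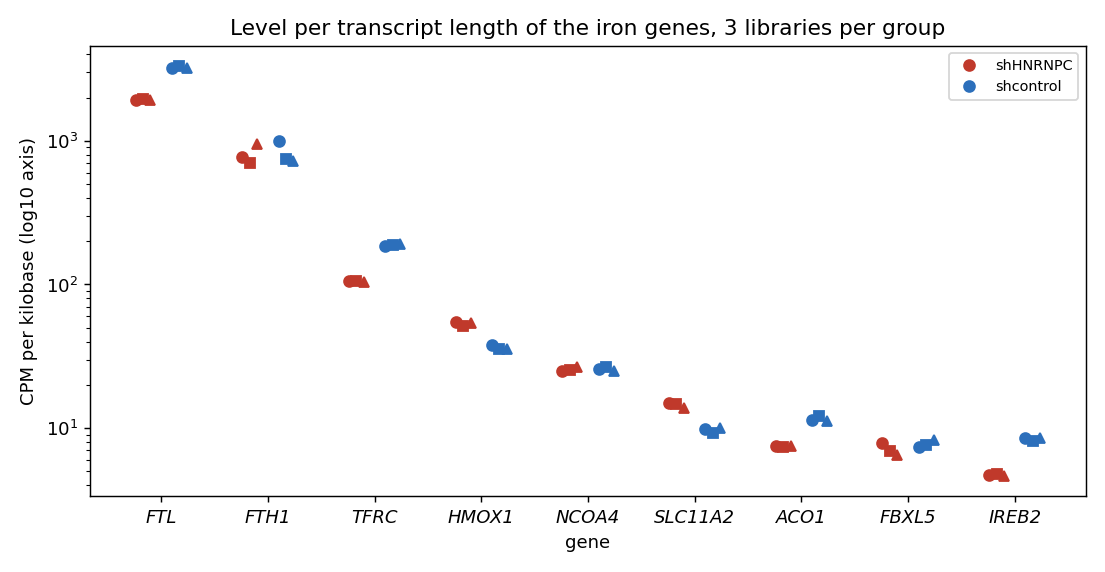
Level of 9 members as CPM per kilobase of the longest coding transcript on a log10 axis, 3 libraries per group, shHNRNPC left of shcontrol. FTL and FTH1 lie highest, and IREB2 lies below every other member in shHNRNPC, at 4.73, and overlaps FBXL5 in shcontrol, at 8.41.

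The genes whose pattern over the 6 libraries was nearest were found by the distance of centred log2 CPM among 9698 genes with at least 5 CPM. They were ITCH, LRRC58 and DEK for FTL, ZNF106, DLG1 and SLMAP for TFRC, and SLMAP, USP1 and CORO1C for IREB2, at distances of 0.0459 to 0.0644. These libraries vary mainly between the groups, so nearness here reflects a like fold change.

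The other genes of iron and heme handling came from 10 lists of 112 genes written by known role. Of their 88 tested genes, 34 were higher and 27 lower, with a median log2 fold change of 0.01, while over all tested genes the median was -0.00. These are shares of 38.6% higher and 30.7% lower, against 29.8% and 31.3% over all tested genes, which also stand behind the count of each list. With libraries scaled by size alone 26 were higher and 31 lower (29.5% and 35.2%, against 25.3% and 35.2% over all tested genes). After the correction for GC content and length 23 were higher and 23 lower (26.1% each, against 26.2% higher over all tested genes), so the larger share of higher calls was not seen there. Of the 37 genes of these lists named by rule, 27 kept their call under all 14 alternatives.

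Genes that carry transferrin into the cell or reduce its iron moved both ways, 4 of 9 higher and 2 lower. PICALM, a clathrin adaptor, fell 1.52-fold (101 ± 2.82 CPM in shHNRNPC, 153 ± 3.68 CPM in shcontrol). EXOC6, an exocyst subunit needed for transferrin cycling in mouse red cell precursors, fell 1.74-fold at a low level (3.12 ± 0.384 CPM in shHNRNPC, 5.40 ± 0.481 CPM in shcontrol). MELTF, melanotransferrin, rose 1.5-fold (107 ± 2.78 CPM in shHNRNPC, 71.6 ± 4.98 CPM in shcontrol), and SNX3, a sorting nexin of the recycling route, rose 1.11-fold. STEAP3, the endosomal iron reductase that acts beside DMT1, was at 104 CPM in shHNRNPC and 101 CPM in shcontrol (edgeR adjusted p = 0.276). Both tested members of the list of other metal importers fell, SLC39A8 1.47-fold and SLC39A14 1.21-fold (edgeR adjusted p = 4.86e-08 and 3.20e-09); these ZIP carriers take up iron that is not bound to transferrin, beside zinc and manganese.

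Hepcidin, a hormone made in the liver, limits iron export by ferroportin. In the list of export and the hepcidin axis 1 of 7 tested genes was higher and 4 lower, 14.3% and 57.1%, against 29.8% and 31.3% over all tested genes. The 7 are receptors, signal carriers and a protease of that axis. HAMP, HJV, BMP6 and CP had no row under the names searched, so their levels are not known here. HEPH, TMPRSS6 and NEO1 were under 1 CPM and not tested. SMAD5, a signal carrier of bone morphogenetic proteins, fell 1.52-fold (36.9 ± 2.78 CPM in shHNRNPC, 56.0 ± 0.322 CPM in shcontrol), and ACVR1, a receptor of that pathway, rose 1.41-fold. BMPR2 and SMAD4 each fell 1.36-fold as counted, and neither was called after the correction for GC content and length (log2 fold changes 0.06 and -0.08).

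Genes that deliver iron to ferritin or turn it over changed little, with 2 of 7 higher and 1 lower. PCBP1, a chaperone that delivers iron to ferritin, rose 1.13-fold to 457 ± 3.82 CPM in shHNRNPC, against 404 ± 6.27 CPM in shcontrol, and was not called after the GC and length correction. NDFIP1, an adaptor of ubiquitin ligases, rose 1.12-fold. HERC2, a ubiquitin ligase that acts on NCOA4, fell 1.18-fold, which the same correction turned to 0.03 on the log2 scale.

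Around the IRP2 ligase and the cytosolic machinery that builds iron-sulfur clusters, 7 of 13 genes were higher and 3 lower. CUL1, the scaffold of the ligase that holds FBXL5, fell 1.26-fold (60.5 ± 4.91 CPM in shHNRNPC, 76.1 ± 3.09 CPM in shcontrol). NUBP2, a cluster assembly ATPase, fell 1.31-fold. CIAO2A, a targeting factor known to act on IRP1, rose 1.32-fold (40.6 ± 2.81 CPM in shHNRNPC, 30.8 ± 1.59 CPM in shcontrol), and CIAO1 rose 1.12-fold, a call that the GC and length correction removed. Of other transcripts known for an iron-responsive element, 1 of 5 was higher and 3 lower. CDC42BPA fell 1.92-fold (11.8 ± 0.174 CPM in shHNRNPC, 22.6 ± 1.33 CPM in shcontrol), EPAS1, the HIF-2 alpha subunit, fell 1.25-fold, and PFN2 rose 1.24-fold. CDC14A fell 1.28-fold and lost its call in DESeq2, after the GC and length correction and without SI_3_2, SI_3_3 or NC_3 (adjusted p = 0.0825, 0.0681 and 0.0950 in edgeR). Over the 316 tested genes that hold an element of the searched form anywhere in a coding transcript, 28.5% were higher and 35.8% lower, with a median log2 fold change of -0.03.

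In mitochondria, 6 of 18 genes were higher and 3 lower. SLC25A28, mitoferrin-2, which brings iron into mitochondria, rose 1.47-fold (50.7 ± 0.725 CPM in shHNRNPC, 34.5 ± 0.439 CPM in shcontrol). ISCU, the scaffold of cluster assembly, rose 1.25-fold and ISCA2, a late-acting assembly factor, rose 1.28-fold, while NFS1, the cysteine desulfurase that supplies the sulfur, fell 1.26-fold. Of 8 genes of heme synthesis 4 were higher and 2 lower. CPOX, coproporphyrinogen oxidase, fell 1.59-fold (35.3 ± 3.67 CPM in shHNRNPC, 56.2 ± 2.20 CPM in shcontrol) and ALAD, an early enzyme of the pathway, rose 1.31-fold. UROD rose 1.09-fold and FECH, which inserts iron, fell 1.12-fold, both without a call after the GC and length correction. ALAS1, the first enzyme outside red cells, was at 119 CPM in shHNRNPC and 115 CPM in shcontrol (edgeR adjusted p = 0.262).

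Transcripts of both biliverdin reductases rose. BLVRB had 348, 354 and 357 CPM in shHNRNPC, against 256, 256 and 262 CPM in shcontrol, a 1.37-fold rise (edgeR adjusted p = 2.44e-20), and BLVRA rose 1.24-fold (edgeR adjusted p = 8.85e-05). In the list of heme breakdown and transport that holds them, 5 of 9 were higher and 2 lower. FLVCR2, a relative of the heme exporter FLVCR1, rose 1.64-fold (9.71 ± 0.581 CPM in shHNRNPC, 5.91 ± 0.303 CPM in shcontrol). LRP1, a receptor for hemopexin-bound heme, fell 1.10-fold, a call lost after the GC and length correction.

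Of 10 transcription factors known to act on iron genes, 4 were higher and 5 lower. HIF1A, which can drive TFRC and HMOX1 in low oxygen, had 27.3, 28.5 and 26.7 CPM in shHNRNPC, against 112, 108 and 111 CPM in shcontrol, a 4.02-fold fall. NFE2L2 (NRF2), an activator of ferritin and HMOX1 genes, fell 1.39-fold (68.2 ± 1.48 CPM in shHNRNPC, 94.8 ± 1.30 CPM in shcontrol), and KEAP1, which marks NRF2 for degradation, rose 1.10-fold, a call lost after the GC and length correction. BACH1, the heme-sensing repressor of HMOX1, fell to 16.1 CPM in shHNRNPC, against 21.0 CPM in shcontrol (edgeR adjusted p = 9.60e-05). BACH1 is outside the rule for named genes and was chosen after its values were seen, as were STEAP3 and ALAS1. MTF1, a metal-responsive factor, rose 1.21-fold. The part of these factors in the levels of the members was not tested.

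**Figure D5:**
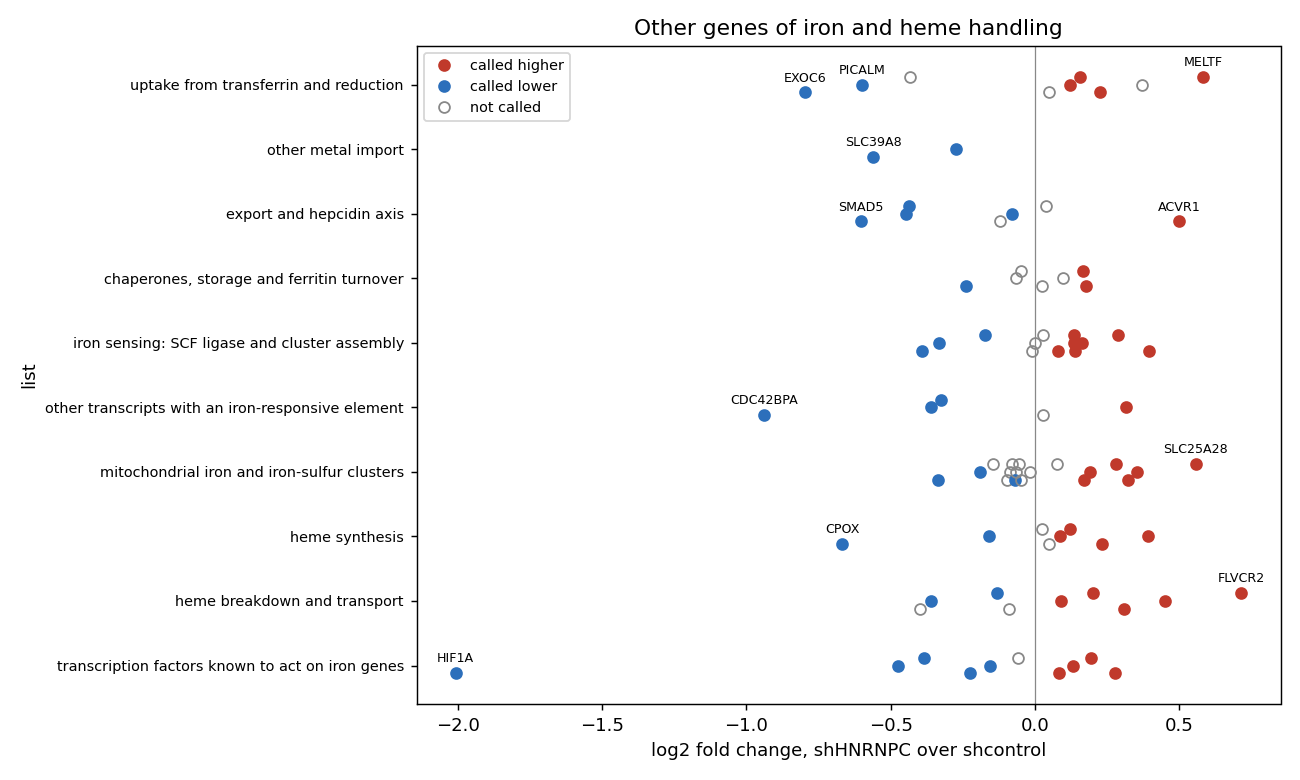
Log2 fold change of shHNRNPC over shcontrol for 88 tested genes in 10 lists of iron and heme handling, filled where the edgeR adjusted p was under 0.05. HIF1A lies farthest to the left, at a 4.02-fold fall, and FLVCR2 farthest to the right, at a 1.64-fold rise.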

How the data were processed

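Whole-number read counts per gene and library were deposited without normalisation. Per the submitters' processing notes, the tools were STAR, HTSeq (0.6.0) and DESeq2. The build, the annotation and the strand setting were not given in the sources used here, and log2 fold changes and p-values in the deposited table are the authors'. Another 24 per-library columns were not used: column names give the group and not the sample, for the counts too, so 1 measure was kept, and levels per length were computed from the counts. Columns named SI and NC were assigned to shHNRNPC and shcontrol as groups. Their suffixes could not be tied to the replicate numbers of the sample titles.

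Counts were filtered with filterByExpr, scaled by TMM and tested with glmQLFit and glmQLFTest (edgeR 4.0.16, R 4.3.3), with Benjamini-Hochberg adjustment over 11831 genes and a threshold of 0.05. Each SE is the size of the log2 fold change over the root of its F statistic, from which 95% intervals were computed. Members and lists were chosen with earlier results of these data known. Genes of the wider lists were named if called and changed at least 1.5-fold, or among the 4 smallest adjusted p of a list. Mean chi-square per gene between libraries of a group was 1.56 to 2.50, so no library was counted as a copy. The design text calls the replicates independent; whether they are separate cultures is not stated, so p-values measure the spread between these libraries. Alternatives were other scalings and filters, DESeq2 1.42.0, limma-voom (limma 3.58.1), leaving out each library, and a loess correction for GC content and length of the longest coding transcript in GENCODE 29. Transcript sequences and element positions are from GENCODE 29 (GRCh38).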

Additional observations from a re-analysis of the deposited data

How the results depend on the processing

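ACO1, SLC11A2 and HMOX1 kept direction and call under all 14 alternatives. Their size moved with the correction for GC content and length, to -0.44 for ACO1, 0.77 for SLC11A2 and 0.38 for HMOX1. Leaving out each library gave log2 fold changes of -0.76 to -0.75 for FTL, -0.86 to -0.83 for TFRC, -0.86 to -0.82 for IREB2, -0.15 to 0.14 for FTH1, -0.21 to -0.071 for FBXL5 and -0.041 to 0.011 for NCOA4. It gave 1 to 2 lower and 2 to 3 higher calls among the 6 tested of the 7 members listed for their role. Over all genes, 3464 to 3615 were lower and 3250 to 3369 higher, of 11925 to 11972 tested. The correction for GC content and length gave -0.93 for FTL, -0.53 for TFRC and -0.40 for IREB2. It gave -0.15 for FTH1 (edgeR adjusted p = 0.0124), 0.070 for FBXL5 and 0.094 for NCOA4. Among the 6 tested members listed for their role, it gave 2 lower and 3 higher calls. Over all 11831 tested genes, the same correction gave 3436 lower and 3104 higher calls. The cause of these shifts was not tested. Library size alone gave -0.79, -0.88 and -0.87 for FTL, TFRC and IREB2, and -0.17 for FBXL5. Among the 6 members it gave 2 lower and 2 higher calls, against 35.2% lower and 25.3% higher over all tested genes. Upper quartile scaling gave 0.00088 for NCOA4. Mean FTL over FTH1 was 1.73 in shHNRNPC and 2.90 in shcontrol in counts, and 2.43 in shHNRNPC and 4.06 in shcontrol per kilobase of transcript. Levels per length from a deposited length-scaled measure were not run: columns are tied to groups and not to samples, so 1 measure, the counts, was kept. That measure was not proportional to the counts for FTH1. No paired analysis was possible because the columns carry no replicate number of the sample titles. Depth limits SLC40A1, which had 3 counts in all.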
